A study of Mus musculus with 6 samples.

Results

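The genes described are 9 receptors that guide T cells into inflamed or peripheral tissue: *Ccr2*, *Ccr4*, *Ccr8*, *Ccr9*, *Cxcr3*, *Cxcr4*, *Cxcr6*, *Cx3cr1* and *Gpr15*. They were taken by name from the 57126 genes of a bulk RNA sequencing count table, and all 9 had counts in every sample. The choice was made with earlier results of these data known, so shares among the 9 are not those of an unselected list. The samples were mouse CD8+ T cells of the OT-I line, whose transgenic T cell receptor recognises an ovalbumin peptide, and all were stimulated with nano-aAPCs (nanoparticles that carry the peptide on MHC class I together with an antibody to CD28) and harvested on day 6 of culture. The 3 TEff samples were expanded with IL-2, and the 3 TRM-like samples with IL-2, mouse IL-15 and mouse TGF-β, so that every TRM-like culture also received what the TEff cultures received. For IL-2, the study's RNA sequencing methods name the mouse protein and its expansion methods the human one. IL-15 and TGF-β were added together, and their separate parts in any difference cannot be told apart. Neither the labels nor the methods say whether the replicates came from separate mice or cultures, the age of the donors, or whether donors were pooled. The p-values therefore measure only the spread between these samples, which may be technical.

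Chemokine receptors are membrane receptors coupled to inhibitory G proteins, and a T cell that carries one migrates towards the tissue that makes its ligand. CCR2, CXCR3 and CX3CR1 are known from T cells that enter inflamed tissue or patrol the blood, CCR4 and CCR8 from skin, and CCR9 and GPR15 from small and large intestine, while CXCR4 binds a chemokine of bone marrow and stroma and CXCR6 is a common feature of tissue-resident CD8+ T cells. GPR15 is a G protein-coupled receptor outside the chemokine receptor family that is listed with them for its role in homing.

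*Gpr15*, *Ccr8* and *Cx3cr1* were higher in TRM-like than in TEff cells, *Ccr2*, *Ccr4*, *Cxcr4* and *Cxcr3* were lower, and *Cxcr6* and *Ccr9* did not pass the test with all 6 samples. The test was the quasi-likelihood F test of edgeR, with p-values adjusted by the Benjamini-Hochberg method over all 26154 genes tested, and a gene passed with an adjusted p under 0.05 and an absolute log2 fold change above 0.58. Among all genes tested 3.01% passed (1.52% higher and 1.48% lower in TRM-like cells), against 7 of the 9 receptor genes. Levels are given as CPM (counts scaled to the normalised size of the library), and a log2 fold change is TRM-like over TEff. In bulk RNA, fewer cells that express a gene and less RNA of it per cell cannot be told apart.

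The libraries held 18319013 to 21960760 counts in the TEff group and 21178756 to 23622621 in the TRM-like group. TRM-like replicate 3 stood apart from the other TRM-like samples. A chi-square per gene was taken over the 14822 genes with 10 counts or more in every sample. It was 7.26 between TRM-like replicates 1 and 2, against 96.3 and 112 between each of them and replicate 3. Between replicate 3 and the TEff samples it was 37.4 to 82.4. In the TEff group replicate 2 was the farther one, at 26.1 and 25.4 from the others, which were 3.73 apart. TEff replicates 1 and 3 lay nearer to TRM-like replicate 3 (41.9 and 37.4) than to TRM-like replicates 1 and 2 (74.8 to 93.4). TEff replicate 2 lay nearer to TRM-like replicates 1 and 2 (54.3 and 68.9) than to replicate 3 (82.4). Whether this split is the unnamed batch that the study removed was not tested. TRM-like replicates 1 and 2 had a second feature of their own, counts spread over genes that T cells do not use. Of 1546 odorant and vomeronasal receptor genes, 956 and 1013 had a count in those libraries and 46 to 55 in the other 4, and their joint level was 0.0284 and 0.0289 CPM per kilobase against 0.00381 to 0.00571. The T cell markers, among them *Cd3e*, *Cd8a* and *Lck*, were present in every sample, and *Cd8a* itself rose (421.5 to 448 CPM in TEff and 927 to 989 CPM in TRM-like samples, log2 fold change 1.14, edgeR adjusted p = 0.00219). Of the markers of other cell types, 15 of 22 stayed below 1 CPM in all 6, including *Cd4* (at most 0.111 CPM), with *S100a8* and *S100a9* at 0. The summed level of those 22 markers was 199.5 to 272 CPM in TEff and 146 to 193 CPM in TRM-like cells, most of it *Trdc* (124 to 198 CPM). *Zbtb7b*, known from CD4+ T cells, passed the test (16.9 to 40.3 CPM, log2 fold change -0.82), and *Klrb1c*, known from NK cells, was at 0.0922 CPM in TRM-like replicate 3 against 6.68 to 21.9 CPM in the other samples. The part of these markers in the results below was not tested.

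**Figure D1:**
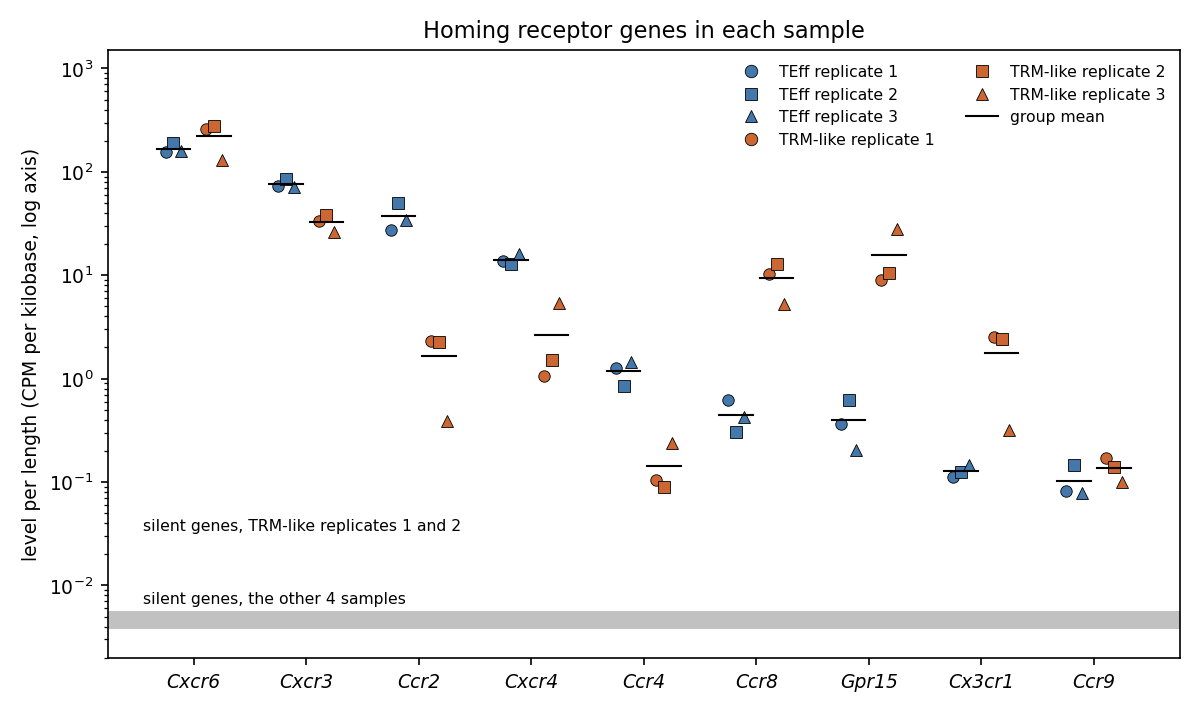
Level per length (CPM per kilobase of counted exon, log axis) of the 9 receptor genes in each TEff (blue) and TRM-like (orange) sample, with the group mean as a black line and the joint level of odorant and vomeronasal receptor genes as bands. *Cxcr6* is highest in both groups, the 3 TRM-like points of *Gpr15* and *Ccr8* lie far above their TEff points, and those of *Ccr2* lie far below.

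All 6 libraries were counted on GRCm39, and 6 of the 9 genes lie on chromosome 9. *Ccr4* (chr9:114319384-114333984, minus strand) stands alone. *Cx3cr1* (chr9:119877749-119898945, minus strand) and *Ccr8* (chr9:119921180-119924263, plus strand) are neighbours 22.2 kb apart. *Ccr9* (chr9:123507181-123613395), *Cxcr6* (chr9:123635534-123640825) and *Ccr2* (chr9:123901982-123913594), all on the plus strand, belong to a second cluster. The others are *Cxcr4* (chr1:128515936-128520044, minus strand), *Gpr15* (chr16:58537796-58539433, minus strand) and *Cxcr3* (chrX:100775141-100777875, minus strand).

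Exons of a few members are shared with other genes, which matters because the library kit kept strand but the strand setting of the counting is not given in the sources used here. *Gpr15* shares 204 exon bases with *Cpox*, a heme synthesis gene on the opposite strand, and 603 with the lncRNA gene *Gm61619*. Of the stretches of 50 bases in the transcripts of *Gpr15*, 44.6% also occur in those genes on one strand or the other. *Gm61619* was not among the counted genes, so its level could not be checked. *Cpox* lay between 26.0 and 45.1 CPM in all samples and did not pass the test (log2 fold change 0.11, edgeR adjusted p = 0.865), and *Gpr15* in the TEff samples lay at 0.332 to 1.01 CPM. *Ccr9* shares 1932 exon bases with the lncRNA gene *Gm17021* and 434 with *Slc6a20a* on the opposite strand, and 592 with the lncRNA gene *Gm17200* on its own strand, which no strand setting would separate, and 22.7% of its stretches of 50 bases occur in other genes. None of these 3 genes had more than 5 counts in any sample. *Cx3cr1* shares 78 with *Gm33858*. *Cxcr6* lies inside *Fyco1* on the opposite strand without a shared exon base. Of the stretches of 50 bases in the transcripts of *Ccr2*, 1.9% also occur in another gene. No such stretch was shared for *Ccr8*, *Cxcr3*, *Cxcr4* or *Cxcr6*.

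The 250 bases upstream of the start site in a RefSeq promoter table of GRCm38.p6 were read for all 9 genes, and each window matched GRCm39 exactly once. In the GENCODE annotation other starts are used for several genes, so that the windows of *Cx3cr1* (250 bases), *Ccr2* (238), *Gpr15* (198) and *Cxcr3* (122) lie in whole or in part in annotated UTR, against 8 bases for *Cxcr4* and *Cxcr6*, 18 for *Ccr4* and 19 for *Ccr8*. They were searched on both strands for a SMAD box (CAGACA), a T-box (GGTGTGA), the core of an AHR site (GCGTG) and a KLF site (CACCC). These are the motifs of factors that act downstream of TGF-β (SMAD3), in effector T cells (T-bet and Eomes), in barrier tissue (AHR) and in circulating T cells (KLF2). The windows of *Ccr8*, *Ccr4* and *Cxcr4* are shown because *Ccr8* was the only member whose window held the SMAD box, while *Ccr4* and *Cxcr4* moved the other way. Capitals mark motif matches on either strand, each window is written along its gene's own strand, and positions are in GRCm39 (chr9:119920949-119921198, plus; chr9:114325613-114325862, minus; chr1:128520037-128520286, minus).
Ccr8: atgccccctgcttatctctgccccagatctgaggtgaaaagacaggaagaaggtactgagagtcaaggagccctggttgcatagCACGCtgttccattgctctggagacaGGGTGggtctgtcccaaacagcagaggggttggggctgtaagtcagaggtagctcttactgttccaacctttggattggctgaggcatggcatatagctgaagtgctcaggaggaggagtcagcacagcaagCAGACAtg
Ccr4: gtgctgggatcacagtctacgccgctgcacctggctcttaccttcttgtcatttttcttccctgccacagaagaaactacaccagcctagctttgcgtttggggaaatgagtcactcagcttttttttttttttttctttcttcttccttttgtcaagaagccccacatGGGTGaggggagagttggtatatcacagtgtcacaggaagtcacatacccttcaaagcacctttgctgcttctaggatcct
Cxcr4: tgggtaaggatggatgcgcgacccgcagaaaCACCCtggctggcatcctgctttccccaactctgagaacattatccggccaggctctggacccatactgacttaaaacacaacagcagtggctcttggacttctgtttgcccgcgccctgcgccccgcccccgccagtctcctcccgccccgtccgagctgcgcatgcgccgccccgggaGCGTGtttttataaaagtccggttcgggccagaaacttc
The SMAD box of *Ccr8* is near the end of its window, past the GENCODE start of the gene and so inside the first exon. The *Ccr8* window held 1 SMAD box, 1 AHR core and 1 KLF site, that of *Cxcr4* 1 AHR core and 1 KLF site, and that of *Ccr4* 1 KLF site. Across 32851 windows of the same length, 17.1% held the SMAD box, 28.2% the AHR core, 52.0% the KLF site and 3.3% the T-box. Of the 9 members, 1 held the SMAD box, 3 the AHR core (*Ccr8*, *Cxcr3* and *Cxcr4*), 6 the KLF site and 0 the T-box. These are matches of short letter strings and do not show binding.

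Of the receptors of inflamed tissue and blood, *Ccr2*, the receptor for CCL2 that brings leukocytes out of the blood into inflamed sites, fell. It stood at 184, 336 and 233 CPM in the TEff samples and at 15.7, 15.4 and 2.63 CPM in the TRM-like samples. Every TEff sample was thus far above every TRM-like sample, with the lowest value in TRM-like replicate 3. The group means were 251 ± 77.4 and 11.3 ± 7.48 CPM (SD, n = 3), a 22.3-fold difference. The log2 fold change was -4.47 (SE 0.59, edgeR adjusted p = 0.00445), and -4.02 without TRM-like replicate 3 (adjusted p = 8.48e-08).

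*Cxcr3*, the receptor for the interferon-induced chemokines CXCL9 and CXCL10, fell too, but kept a high level. Its TEff values were 127, 146 and 122.5 CPM and its TRM-like values 58.4, 66.8 and 45.5 CPM, with no overlap and a narrow spread inside each group (132 ± 12.65 against 56.9 ± 10.7 CPM, SD, n = 3). The 2.32-fold difference gave a log2 fold change of -1.21 (SE 0.17, edgeR adjusted p = 0.00543). Among the 7 genes that passed, this was the smallest change.

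*Cx3cr1*, the receptor for fractalkine, went the other way. The TEff samples held 11, 11 and 12 counts (0.503, 0.557 and 0.663 CPM) and the TRM-like samples 262, 251 and 31 counts (11.4, 10.97 and 1.43 CPM). TRM-like replicates 1 and 2 were alike and 7.83-fold above replicate 3, which still exceeded every TEff sample. The log2 fold change was 3.79 (SE 0.72, edgeR adjusted p = 0.0254), and 4.27 without TRM-like replicate 3 (adjusted p = 2.57e-08). The call is not firm: limma-voom gave an adjusted p of 0.184, and *Cx3cr1* passed in 1 of the 6 fits that left out a library, the one without TRM-like replicate 3, with adjusted p up to 0.156 in the others.

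The skin-homing receptors split. *Ccr4*, which binds CCL17 and CCL22, fell from 3.70, 2.48 and 4.20 CPM in TEff to 0.305, 0.262 and 0.692 CPM in TRM-like samples. The groups did not overlap, and the log2 fold change was -3.04 (SE 0.40, edgeR adjusted p = 0.00458). The TRM-like values rest on 7, 6 and 15 counts. In TRM-like replicates 1 and 2, 1.90 and 1.93 counts would be expected over a gene of its length at the level of the odorant and vomeronasal receptor genes, so that *Ccr4* stood 3.69 and 3.11 times above it there.

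*Ccr8*, the receptor for CCL1 and CCL8, rose from 16, 7 and 9 counts in TEff to 278, 346 and 134 counts in TRM-like samples. In CPM these are 0.732, 0.354 and 0.497 against 12.1, 15.1 and 6.18. TRM-like replicate 3 was the lowest of its group and still far above every TEff sample. The means differed 21.1-fold (0.528 ± 0.190 and 11.1 ± 4.55 CPM, SD, n = 3), and the log2 fold change was 4.37 (SE 0.41, edgeR adjusted p = 0.000944). It stayed between 4.09 and 4.71 with any library left out and passed in all 6 such fits.

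Of the gut-homing receptors only *Gpr15* passed. *Gpr15* had the largest fold change of the 9 genes with all 6 samples, from 13, 20 and 6 counts in TEff to 338, 397 and 984 counts in TRM-like samples. In CPM these are 0.594, 1.01 and 0.332 against 14.7, 17.3 and 45.4, so that TRM-like replicate 3 was the highest and lay 2.83-fold above the mean of the others. The means were 0.646 ± 0.343 and 25.8 ± 17.0 CPM (SD, n = 3), and the log2 fold change was 5.30 (SE 0.55, edgeR adjusted p = 0.00144). It was lower without TRM-like replicate 3, at 4.60 (adjusted p = 6.25e-08), and then no longer the largest, since *Ccr8* was at 4.65.

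*Ccr9*, the receptor for the small intestinal chemokine CCL25, was near the floor in both groups. The TEff samples held 10, 16 and 8 counts and the TRM-like samples 22, 18 and 12, or 0.457, 0.810 and 0.442 against 0.960, 0.786 and 0.553 CPM. The groups overlapped and the log2 fold change was 0.43 (SE 0.40, edgeR adjusted p = 0.691). Whether some of these counts belong to the genes that share its exons was not tested, and a difference between the groups was not detectable at this depth.

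*Cxcr4*, the receptor for CXCL12, stood at 24.65, 23.2 and 28.96 CPM in TEff and at 1.92, 2.75 and 9.64 CPM in TRM-like samples. The groups did not overlap, but TRM-like replicate 3 was 4.13-fold above the mean of the other TRM-like samples. The log2 fold change was -2.43 (SE 0.50, edgeR adjusted p = 0.0355), and -3.46 without that library (adjusted p = 4.79e-08). Leaving out any of the other 5 libraries ended the call, with adjusted p up to 0.163.

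*Cxcr6*, which binds CXCL16, was the highest of the 9 genes in every sample. It lay at 301, 366 and 306 CPM in TEff and at 504, 540 and 253 CPM in TRM-like samples. TRM-like replicates 1 and 2 were above all TEff samples and TRM-like replicate 3 was below them all. With all 6 samples the log2 fold change was 0.41 (SE 0.26, edgeR adjusted p = 0.538), and without TRM-like replicate 3 it was 0.68 and passed (adjusted p = 0.000967). That library alone thus set whether *Cxcr6* was called.

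**Figure D2:**
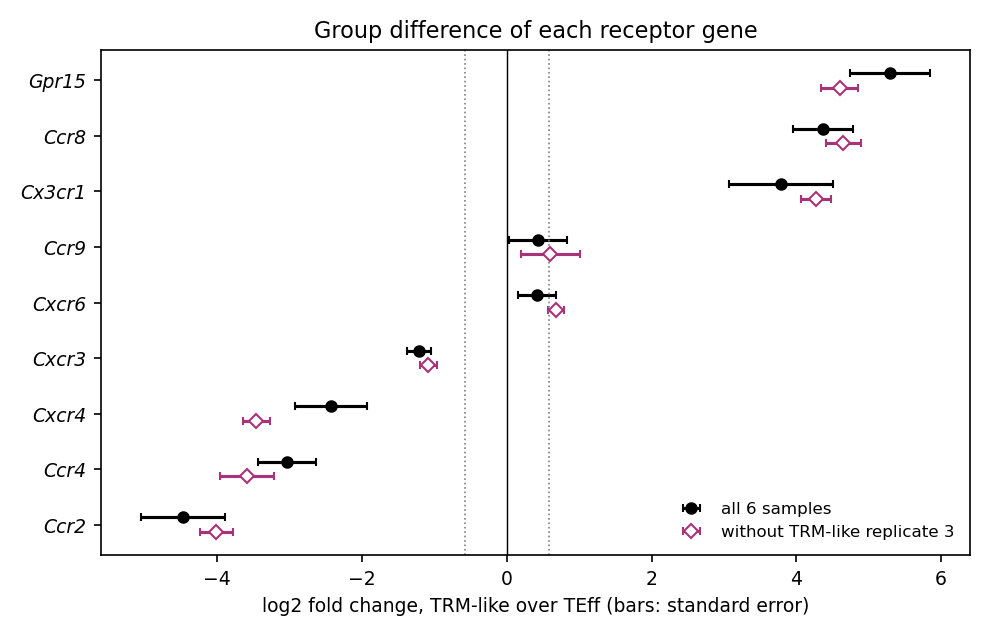
Log2 fold change, TRM-like over TEff, of each receptor gene with its standard error, with all 6 samples (filled) and without TRM-like replicate 3 (open), and dotted lines at the fold threshold of 0.58 on either side. *Gpr15*, *Ccr8* and *Cx3cr1* lie to the right and *Ccr2*, *Ccr4*, *Cxcr4* and *Cxcr3* to the left in both fits. *Cxcr6* and *Ccr9* cross the right-hand line only without that library, and *Ccr9* (0.60, edgeR adjusted p = 0.343) did not pass there either.

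Without TRM-like replicate 3, 8 of the 9 genes passed, 4 in each direction, where 14.0% of all genes tested did. All 9 kept their direction in each of the 6 fits that left out a library. *Ccr2*, *Ccr4*, *Ccr8*, *Cxcr3* and *Gpr15* passed in all 6. The groups did not overlap in 7 of the 9 genes, against 20.3% of all genes tested. TRM-like samples were the higher in 3 of these (10.6% of all genes) and the lower in 4 (9.71% of all genes).

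TRM-like replicate 3 did not lie uniformly nearer to TEff. Its value was nearer to the TEff values than those of the other TRM-like samples for *Cx3cr1*, *Ccr8*, *Cxcr4* and *Ccr4*, but farther from them for *Gpr15*, *Ccr2* and *Cxcr3*. Against the mean of TRM-like replicates 1 and 2 it was 5.93-fold lower for *Ccr2*, 7.83-fold lower for *Cx3cr1*, 2.20-fold lower for *Ccr8* and 2.06-fold lower for *Cxcr6*, and 2.44-fold, 2.83-fold and 4.13-fold higher for *Ccr4*, *Gpr15* and *Cxcr4*.

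Levels between genes were compared per length, as CPM per kilobase of counted exon. In TEff cells the order was *Cxcr6* (168 ± 18.9, SD, n = 3), *Cxcr3* (76.2 ± 7.31), *Ccr2* (37.1 ± 11.5), *Cxcr4* (14.2 ± 1.65), *Ccr4* (1.19 ± 0.304), *Ccr8* (0.449 ± 0.162), *Gpr15* (0.395 ± 0.210), *Cx3cr1* (0.128 ± 0.0181) and *Ccr9* (0.102 ± 0.0373). Neighbours in that order had overlapping values only for *Ccr8* with *Gpr15* and *Cx3cr1* with *Ccr9*. In TRM-like cells it was *Cxcr6* (224 ± 80.9), *Cxcr3* (32.9 ± 6.21), *Gpr15* (15.8 ± 10.4), *Ccr8* (9.48 ± 3.87), *Cxcr4* (2.64 ± 2.35), *Cx3cr1* (1.77 ± 1.26), *Ccr2* (1.67 ± 1.11), *Ccr4* (0.144 ± 0.0813) and *Ccr9* (0.137 ± 0.0365). There only *Cxcr6* was clear of *Cxcr3*, and *Ccr2* of *Ccr4*, and the neighbours between could not be ordered beyond their spread. By their means *Ccr2* went from rank 3 to rank 7 and *Gpr15* from rank 7 to rank 3, and by CPM without regard to length *Ccr2* went from rank 2 to rank 4 and *Gpr15* from rank 6 to rank 3.

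The make-up of the 9 genes changed more than their sum. Summed per length, they came to 273, 339 and 282 CPM per kilobase in TEff and to 320, 348 and 197 in TRM-like samples, with overlapping groups. *Cxcr6* made up 56.5% ± 0.657 of that sum in TEff and 76.15% ± 8.26 in TRM-like cells (SD, n = 3). *Ccr2* went from 12.3% ± 2.33 to 0.527% ± 0.287, and *Cxcr3* from 25.65% ± 1.09 to 11.66% ± 1.495. *Gpr15* had 0.0718% to 0.182% in the TEff samples, 2.81% and 3.04% in TRM-like replicates 1 and 2, and 14.08% in replicate 3, where it exceeded the share of *Cxcr3* (13.4%).

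**Figure D3:**
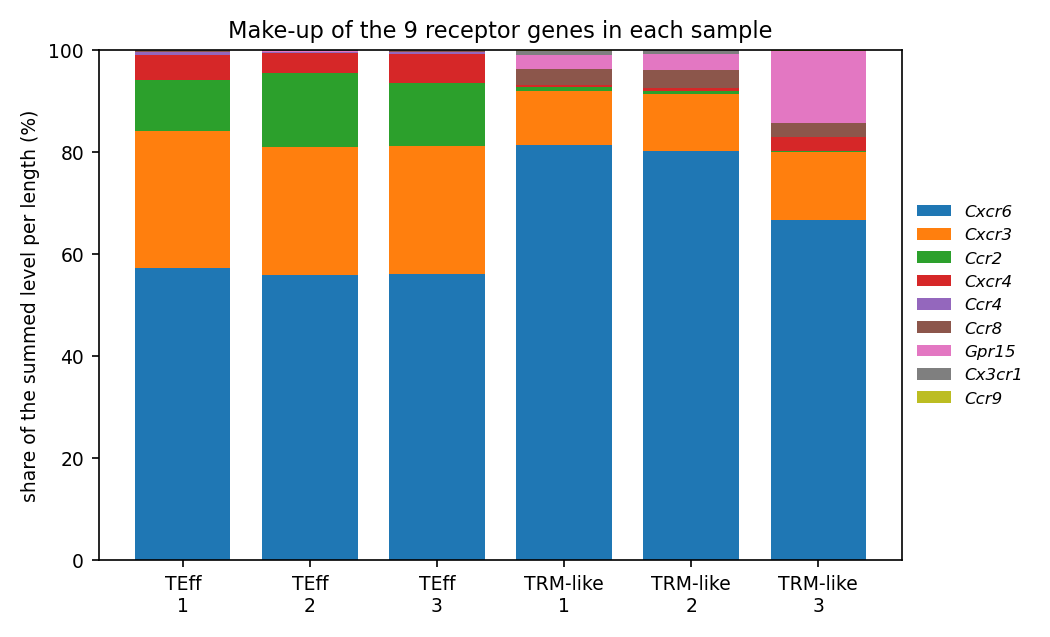
Share of each gene in the summed level per length of the 9 receptor genes (stacked bars, %, 0 to 100) in each of the 6 samples. *Cxcr6*, *Cxcr3*, *Ccr2* and *Cxcr4* fill nearly the whole bar in the TEff samples, while in the TRM-like samples *Cxcr6* takes 66.6% to 81.5% and *Gpr15* and *Ccr8* become visible.

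The neighbours of the receptor genes on chromosome 9 were described after their values had been seen. Within 100 kb of *Cx3cr1* and *Ccr8* lie 20 genes, of which 14 were tested and 3 passed, all higher in TRM-like cells. The third was *Gm47050*, a putative transcript on the strand of *Ccr8* that begins 465 bases beyond its end. It had 3, 1 and 2 counts in TEff and 85, 97 and 37 in TRM-like samples (log2 fold change 4.93, edgeR adjusted p = 0.00183), low in the same TRM-like library as *Ccr8*. The flanking genes *Csrnp1* (0.17), *Slc25a38* (0.68) and *Rpsa* (0.19) did not pass with all 6 samples. Without TRM-like replicate 3, *Slc25a38* (0.84, adjusted p = 0.000534) and *Gm33858*, which overlaps *Cx3cr1* (2.89, adjusted p = 0.0137), passed too, both higher. In that fit 14.0% of all genes tested passed. *Gm33858* rests on few counts, 1, 1 and 1 in TEff and 7, 12 and 1 in TRM-like samples.

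From *Ccr9* to *Ccr2*, over 406 kb, 17 of 18 genes were tested and 2 passed, both lower: *Ccr2* and the lncRNA gene *Gm57030* (-1.58, edgeR adjusted p = 0.0423). *Gm57030* shares 1071 exon bases with the receptor gene *Xcr1* on the opposite strand. The part of that overlap in the counts of either gene was not tested. Of the receptor genes between *Cxcr6* and *Ccr2*, *Ccr1*, *Ccr1l1* and *Ccr3* stayed below 0.3 CPM in every sample. *Xcr1*, which also lies there, stood at 1.74, 2.23 and 0.884 CPM in TEff and at 0.698, 0.743 and 0.646 CPM in TRM-like samples. It did not pass (-1.22, edgeR adjusted p = 0.165).

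**Figure D4:**
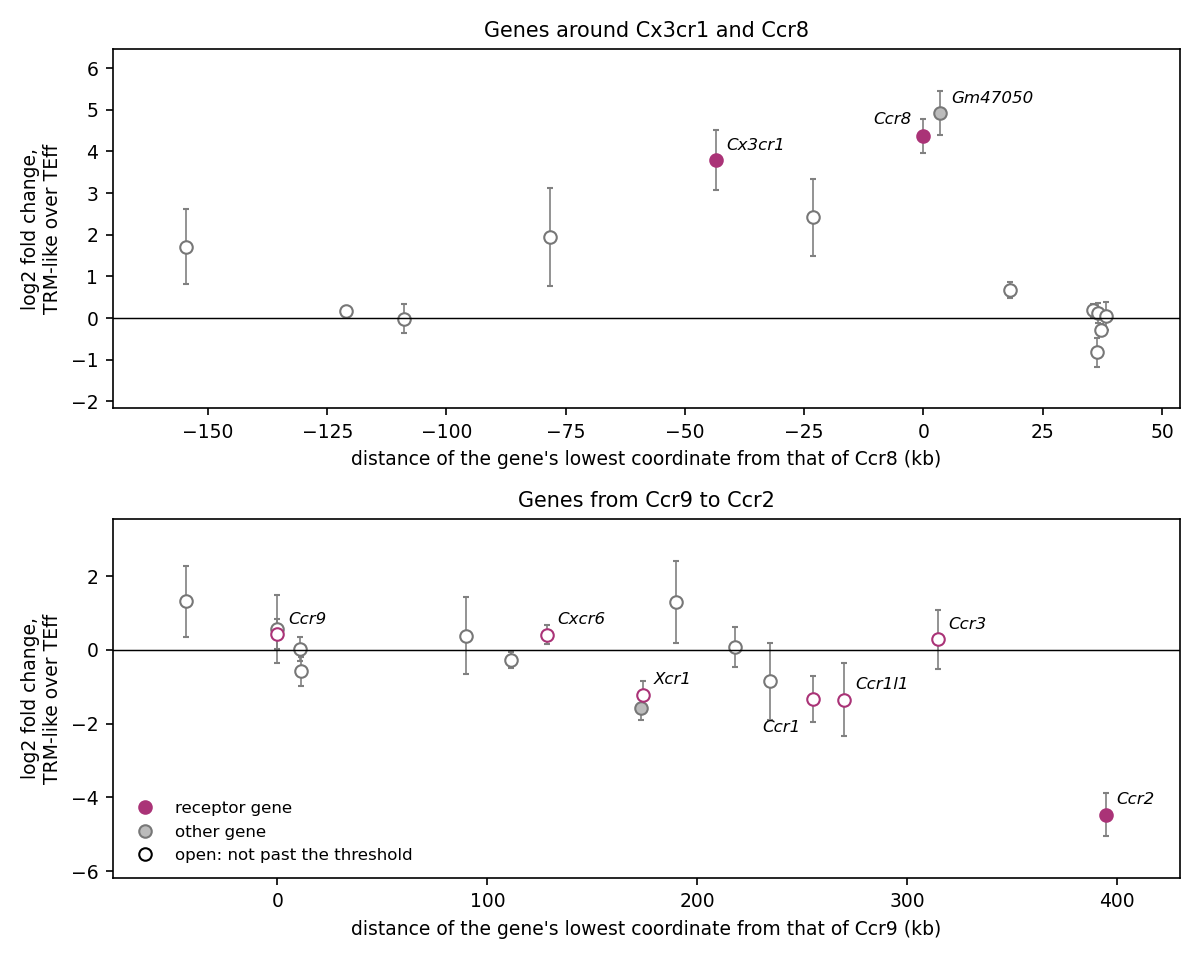
Log2 fold change, TRM-like over TEff, with its standard error, of the tested genes around *Cx3cr1* and *Ccr8* (upper panel) and from *Ccr9* to *Ccr2* (lower panel), against distance along chromosome 9 in kb. Filled points passed the test: *Cx3cr1*, *Ccr8* and *Gm47050* stand highest in the upper panel, with open points from -0.83 to 2.42 around them, and *Ccr2* lies lowest at the far end of the other cluster.

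Of the 16 other chemokine receptor genes 12 were tested and 2 passed, both lower, where 3.01% of all genes tested did. Of the 16, 10 stayed below 1 CPM in every sample. The median log2 fold change of those tested, -1.12 against 0.02 over all genes, thus rests in part on genes with few counts. The median of the 9 members, 0.41, is the value of *Cxcr6*, which did not pass, with 3 members called higher and 4 lower. *Ccrl2*, an atypical receptor that presents chemerin, fell from 5.395, 5.77 and 4.86 CPM to 1.44, 1.14 and 1.01 CPM (-2.15, edgeR adjusted p = 0.00170). *Ccr10*, a skin-homing receptor like CCR4, fell from 2.79, 4.51 and 3.15 CPM to 0.218, 0.131 and 0.692 CPM (-3.32, adjusted p = 0.00825). *Ccr7*, which takes T cells to lymph nodes, stood at 28.1, 27.7 and 26.9 CPM in TEff and at 29.3, 36.6 and 59.7 CPM in TRM-like samples and did not pass (0.60, adjusted p = 0.279). *Cxcr5*, the follicle-homing receptor, was also short of the threshold (1.73, adjusted p = 0.0770), but passed without TRM-like replicate 3 (2.07, adjusted p = 5.01e-05).

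The cells made little RNA for the ligands of these receptors. Of 15 ligand genes, 4 had no count in any sample, 12 stayed below 1 CPM throughout and 6 could be tested. The highest in the mean of all 6 samples were *Ccl25* (0.810 to 1.83 CPM) and *Cxcl16* (0.718 to 1.62 CPM), the ligands of CCR9 and CXCR6. With edgeR 0 of the 6 passed, as with DESeq2 and limma-voom, and 1 was under 0.05 before adjustment, *Ccl1*, a ligand of CCR8 (edgeR adjusted p = 0.333). *Ccl1* had 1.44 and 2.88 CPM in TRM-like replicates 1 and 2 but 0.0461 CPM in replicate 3, against 0.0915 to 0.608 CPM in TEff, and passed without replicate 3 (2.97, adjusted p = 0.00195).

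Of 20 genes for signalling from these receptors and their desensitisation, 2 passed, both higher. They encode arrestins, which uncouple activated receptors from their G proteins. *Arrb1* rose from 59.1, 39.7 and 60.6 CPM to 104, 108 and 110 CPM (1.01, edgeR adjusted p = 0.0154), and *Arrb2* from 147, 162 and 146 CPM to 243, 263 and 218 CPM (0.67, adjusted p = 0.0308). Both calls depend on single libraries. *Arrb2* passed in 1 of the 6 fits that left out a library, the one without TRM-like replicate 3 (adjusted p up to 0.203 in the others), and *Arrb1* did not pass without TEff replicate 1, TEff replicate 3 or TRM-like replicate 2 (adjusted p up to 0.0715). The genes with the highest level, the GTPase gene *Rac2* (0.09, adjusted p = 0.862) and its exchange factor gene *Dock2* (-0.41, adjusted p = 0.244), did not pass.

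Of 12 transcription factor genes tied to homing receptors in T cells by general knowledge, 3 passed, where 3.01% of all genes tested did: *Ahr* rose and *Smad3* and *Eomes* fell. Whether they act on the receptor genes here was not tested. *Ahr*, the aryl hydrocarbon receptor of cells in barrier tissue, went from 1.05, 0.709 and 0.995 CPM to 34.02, 30.5 and 54.7 CPM (5.42, SE 0.30, edgeR adjusted p = 7.7e-05). Like *Gpr15*, it was highest in TRM-like replicate 3. *Smad3*, which carries the TGF-β signal to the nucleus, went from 16.0, 22.8 and 13.9 CPM to 1.44, 1.40 and 3.87 CPM (-2.98, adjusted p = 0.00448), and *Eomes* from 8.96, 12.9 and 12.5 CPM to 3.18, 3.01 and 1.84 CPM (-2.09, adjusted p = 0.00308). *Runx3* (1.08, adjusted p = 0.150) and *Id2* (-0.04, adjusted p = 0.953), the factor genes with the highest level, and *Tbx21*, the gene of T-bet (-0.26, adjusted p = 0.625), did not pass. *Klf2*, which keeps T cells in circulation, did not pass with all 6 samples either (-1.09, adjusted p = 0.0891). Without TRM-like replicate 3 both *Runx3* (1.36, adjusted p = 0.000258) and *Klf2* (-1.35, adjusted p = 0.00128) passed, and *Runx3* also passed with DESeq2 (adjusted p = 0.0234).

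**Figure D5:**
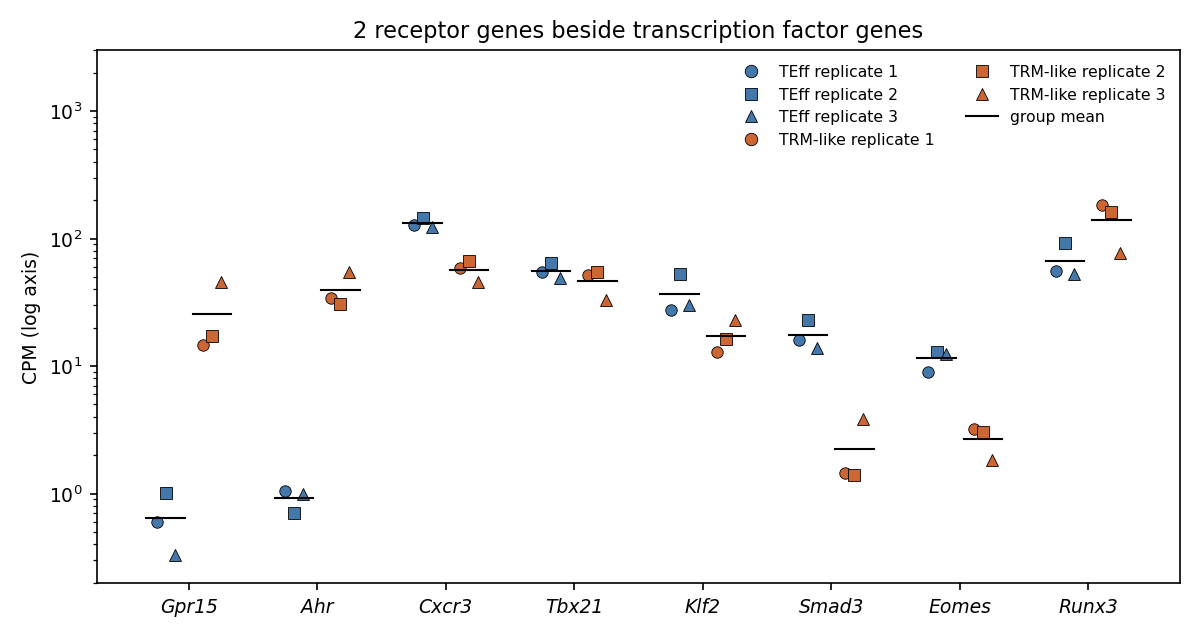
CPM (log axis) of *Gpr15* and *Cxcr3* beside 6 transcription factor genes in each TEff and TRM-like sample, with the group mean as a black line. The 3 TRM-like points of *Ahr* lie at 30.5 to 54.7 CPM above TEff points of about 1 CPM, and those of *Smad3* and *Eomes* lie below all their TEff points.

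For each of the 7 receptor genes that passed, the genes closest in pattern over the 6 samples were sought among the 14822 genes with 10 counts or more in all samples. The distance was the root mean square difference of log2 CPM centred on each gene's mean, so that genes with the same fold change in the same samples come first, and it says nothing of shared function or control. The closest to *Gpr15* was *Ahr* (0.608), followed by *Igha* (0.788) and *Iigp1* (0.856). The closest to *Ccr8* were *Slc15a1* (0.345), *Sema6d* (0.412) and *Pmepa1* (0.420), the last an induced inhibitor of TGF-β signalling. *Cx3cr1* had *Gm2629* and *Kit* (0.263 each) and the chemokine gene *Xcl1* (0.289), which stood at 366 and 432 CPM in TRM-like replicates 1 and 2, 63.4 CPM in replicate 3 and 16.8 to 22.4 CPM in TEff samples.

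Among the genes that fell, *Ccr4* was closest to *Ckb* (0.143), *Tex15* (0.211) and *Dnajc27* (0.229), and *Cxcr4* to *Dnajc27* (0.306), *Emilin2* (0.329) and *Gpld1* (0.336). *Cxcr3* had the closest partners of all, *Atp13a2* (0.0550), *Rundc3a* (0.0618) and *Psen2* (0.0696). *Ccr2* had none near: *Gucy2e* (0.979), *Tspan32* (0.986) and *Arl4d* (1.01) were its closest genes.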

How the data were processed

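RNA sequencing was analysed in 3 TEff and 3 TRM-like samples, grouped by their labels. The authors trimmed the reads with Cutadapt (4.8 in the submitters' processing notes), mapped and counted them with Rsubread on GRCm39 (GENCODE), and deposited unnormalised counts for each gene beside its counted length. The treatment of reads with several positions and the strand setting are not given in the sources used here. The study's methods mention removal of a batch that they do not name, and none was modelled. Of 57126 genes, 56620 were matched to symbols in GENCODE M39.

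Genes with 1 count or more in 3 samples or more entered the test with edgeR 4.0.16 (TMM, quasi-likelihood, R 4.3.3). The test was also run on simulated counts. These held no library that stood apart as TRM-like replicate 3 does, so that run cannot show how the test handles such a library. DESeq2 1.42.0 and limma 3.58.1 (voom) were alternatives. Named genes were all members, from each list the up to 5 that passed with the smallest p and the 2 with the highest CPM, and the 3 closest genes of each member that passed. Genes outside this rule (*Cpox*, *Cxcr5*, *Ccl1*, *Tbx21*, *Klf2*, markers and chromosomal neighbours) were picked once values had been seen. A gene that this rule names is not reported here. The members and lists were chosen with earlier results of these data known.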

Additional observations from a re-analysis of the deposited data

How the results depend on the processing

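The number of the 9 receptor genes past the threshold, 7, ranged from 5 to 8 with a library left out, and was 6 with limma-voom and 7 with DESeq2, DESeq2 size factors, library totals alone, filterByExpr, no filter, genes above the silent-gene level and adjusted p alone. It was 4 with at least 10 counts in every sample, which left 5 of the 9 genes testable. The other chemokine receptors (2 past) gave 4 with DESeq2, 1 with at least 10 counts and 6 with no filter, and 1 to 4 with a library left out. Ligands (0) gave 1 with no filter and 0 to 1 with a library left out. Coupling genes (2) gave 4 with no filter and 0 to 6 with a library left out. Transcription factors (3) gave 5 with DESeq2, 6 with no filter and 3 to 6 with a library left out. In each list the highest of these ranges was the fit without TRM-like replicate 3.

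In the fit that took replicate numbers as a block, 7 receptor genes, 5 other receptors, 1 ligand, 5 coupling genes and 6 transcription factors passed. That fit took every gene's spread from the common trend (prior degrees of freedom infinite, against 4.97 in the main fit). The edgeR adjusted p of *Ccr2* was 8.8e-102 there and 2.13e-106 with no filter, against 0.00445 in the main fit. Counts from these 2 fits are thus not on the footing of the main fit, and the share of all genes that passed in them is not given. With the replicate block and at least 10 counts in every sample the counts were 4 receptor genes, 3 other receptors, 0 ligands, 3 coupling genes and 5 transcription factors. Same-numbered samples did not all deviate together (correlations -0.292, 0.309 and 0.389 for numbers 1, 2 and 3), and TEff replicate 2 correlated best with TRM-like replicate 1 (0.519), so the samples were not treated as paired. Of the log2 fold changes of named genes under the alternatives, 657 kept their direction and side of the threshold, 43 lost the threshold, 18 gained it and 3 changed sign: *Rac2* without TRM-like replicate 2, and *Id2* without TEff replicate 3 (0.01) or without TRM-like replicate 3. With a library left out, *Rac2* ranged from -0.044 to 0.20 and *Id2* from -0.14 to 0.13. The cause was not tested. Counts of 6 to 20 limit the TEff levels of *Ccr8*, *Ccr9*, *Cx3cr1* and *Gpr15*, and counting error adds to their spread.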
